A study of Mus musculus with 28 samples.

Results

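The genes described here are 8 genes through which liver and kidney cells take up, burn, store and release glucose and fructose: Mlxipl, Gckr, Pklr, Khk, Slc2a2, G6pdx, Gys2 and Pygl. They were taken as a named list covering the sugar-sensing factor ChREBP, glucose phosphorylation control, glycogen and fructose use, by matching Ensembl gene identifiers to symbols. The matching used no measured values, but the list itself was drawn up with earlier results of these data known. All 8 were found, once each, among the 54446 genes counted. The study asked whether large oral doses of nicotinamide mononucleotide (NMN), a precursor of the redox cofactor NAD+, harm the liver or kidney of mice, and RNA sequencing of both organs was 1 of its measurements. Male mice, 8 weeks old, labelled C57BL/6 and given as C57BL6J in the study's methods, received NMN or water by gavage for 7 days. NMN was given once per day (1340 mg/kg/d), with 4 NMN-treated and 4 control animals per organ, or in 2 gavages per day (2680 mg/kg/d), with 3 NMN-treated and 3 control animals per organ. This makes 28 polyA RNA libraries, 14 from liver and 14 from kidney, each from 1 mouse. The control animals of a schedule were gavaged with water as often as their NMN-treated counterparts. The higher daily dose was given only as 2 gavages, so that between the schedules the dose and the number of gavages cannot be told apart. The study's methods also name 2 Illumina sequencers without saying which libraries were read on which. Any other difference between the libraries of the schedules cannot be told apart from dose and gavages either.

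In the liver, glucose enters hepatocytes through the transporter GLUT2 and is trapped by phosphorylation, a step held back by the regulatory protein that Gckr encodes when glucose is scarce. Glucose then flows to glycogen, to the pentose phosphate pathway or through glycolysis to pyruvate, while fructose is phosphorylated by ketohexokinase and joins glycolysis below its main control step. The transcription factor ChREBP, with its partner Mlx, is activated by sugar metabolites and binds carbohydrate response elements of genes for sugar use and fat synthesis, of which liver pyruvate kinase is the textbook example.

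Mlxipl encodes ChREBP, and lies on chromosome 5 (chr5:135089890-135138382, GRCm38, plus strand). Gckr encodes the glucokinase regulatory protein (chr5:31297443-31327314, plus). Khk encodes ketohexokinase, the first enzyme of fructose use (chr5:30921431-30931248, plus). Pklr encodes the pyruvate kinase of liver and red blood cells, the last step of glycolysis (chr3:89136142-89146784, plus), and Slc2a2 encodes GLUT2 (chr3:28697903-28731359, plus). G6pdx encodes glucose-6-phosphate dehydrogenase, the entry step of the pentose phosphate pathway (chrX:74409483-74429194, minus). Gys2 encodes liver glycogen synthase (chr6:142422613-142473109, minus), and Pygl encodes liver glycogen phosphorylase, which breaks glycogen down (chr12:70190811-70231488, minus). Reads were counted over the exons of each gene, and the spans are those of the GENCODE M21 annotation.

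Reads were counted without regard to strand, so a read wholly within exon bases shared with an opposite-strand gene cannot be assigned to either. Under the intersection-strict rule of the counting such a read counts for neither gene. Pklr shares 711 exon bases with Hcn3, a cation channel gene, G6pdx shares 418 with Ikbkg and Mlxipl shares 235 with Gm43500. Slc2a2 and Pygl overlap opposite-strand genes only outside shared exons, and Gckr, Khk and Gys2 overlap none. Hcn3 had 28.2 ± 9.91 CPM (reads of the gene per 1000000 reads of the library, SD, n = 3) in control livers at 2680 mg/kg/d and 3.74 ± 1.94 CPM (n = 3) with NMN, and Gm43500 had no count in any library. Ikbkg, a regulatory subunit of the NF-kappaB pathway, had 42.8 to 65.4 CPM in control livers at 2680 mg/kg/d and 105 to 145 CPM with NMN, without overlap, and at 1340 mg/kg/d 67.4 to 117 CPM in control livers and 28.1 to 31.5 CPM in control kidneys. Its part in the G6pdx values was not tested.

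Each library held between 12688324 and 33872983 reads assigned to genes. In the kidney this depth did not overlap between the groups. At 1340 mg/kg/d it was 15354270 to 15696435 in control kidneys and 13174264 to 14006288 with NMN. At 2680 mg/kg/d it was 16358886 to 18983689 in control kidneys and 22922994 to 33872983 with NMN. Levels are given as such CPM, scaled between libraries by the trimmed mean of M-values, and between genes only as CPM per kilobase of exon. The organ labels were checked with marker genes. All 6 hepatocyte markers were detected in every liver group, led by Alb (174168 CPM in control livers at 2680 mg/kg/d), and all 6 proximal tubule markers in every kidney group, led by Kap (16505 CPM in control kidneys at 2680 mg/kg/d). Most of these markers were also detected in the other organ, so the check rests on their levels. In control animals at 2680 mg/kg/d the hepatocyte markers summed to a mean of 220487 CPM in liver and 1683 CPM in kidney, led there by Cyp2e1. The proximal tubule markers summed to 5.95 CPM in liver and 23039 CPM in kidney. A trace of Kap was present in liver at 1340 mg/kg/d (35.9 CPM in control animals). At 2680 mg/kg/d the proximal tubule markers summed to 41.7 CPM in the liver of NMN mouse 1 and to between 1.90 and 13.4 CPM in the other 5 livers, and the markers of the loop of Henle, distal tubule and collecting duct to 8.06 CPM against 0 to 1.65 CPM. That library also stood apart from its group in its counts as a whole, with a chi-square per gene of 60.6 and 59.4 against NMN mice 2 and 3, which differed from each other by 31.0, while control livers of the schedule differed by 29.1 to 35.5. At 1340 mg/kg/d the liver of NMN mouse 4 differed from the other NMN-treated livers by 64.1 to 67.9, against 24.7 to 44.9 among those, and 29.3% of its entries named no gene, against 18.6% to 22.1% in the other 13 livers. Control livers 1 and 3 of that schedule differed by 96.2, and the other control pairs by 21.2 to 60.1. The part of these differences in the members' values was not tested, and the liver calls at 2680 mg/kg/d are also given without NMN mouse 1. On average 20.6% of counts in control kidneys were from mitochondrially encoded genes at 2680 mg/kg/d, compared with 9.71% at 1340 mg/kg/d, and the schedules were compared only through their own control animals.

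ChREBP is known to act through carbohydrate response elements, which are made of a pair of boxes like an E-box, and the upstream bases of the 3 members whose windows held a match to either pattern searched are printed. They are RefSeq windows of GRCm38.p6, read 5′ to 3′ and ending at the base before the start site. The first is the L-type start of Pklr (chr3:89136373-89136622, plus strand), in which the capitals mark a carbohydrate response element, a box of 6 bases and its mirror image on the other strand 5 bases apart, whose first base lies 170 bases before the start. The second is Khk (chr5:30921309-30921558, plus strand), in which the capitals mark a lone E-box whose first base lies 71 bases before the start. The third is the upstream of the Mlxipl starts (chr5:135089640-135089889, plus strand), with a lone E-box in capitals whose first base lies 98 bases before that start. The window of the other Mlxipl start (chr5:135106641-135106940) held neither pattern.
Pklr: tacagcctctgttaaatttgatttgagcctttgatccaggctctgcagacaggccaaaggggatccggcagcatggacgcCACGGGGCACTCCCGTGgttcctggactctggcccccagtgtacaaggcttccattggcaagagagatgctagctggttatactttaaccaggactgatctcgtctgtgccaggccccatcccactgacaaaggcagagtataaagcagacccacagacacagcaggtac
Khk: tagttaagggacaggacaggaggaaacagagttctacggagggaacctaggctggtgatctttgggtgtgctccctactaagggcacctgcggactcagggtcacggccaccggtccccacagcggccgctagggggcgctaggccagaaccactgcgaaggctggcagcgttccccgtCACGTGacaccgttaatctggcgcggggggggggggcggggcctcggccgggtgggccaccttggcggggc
Mlxipl: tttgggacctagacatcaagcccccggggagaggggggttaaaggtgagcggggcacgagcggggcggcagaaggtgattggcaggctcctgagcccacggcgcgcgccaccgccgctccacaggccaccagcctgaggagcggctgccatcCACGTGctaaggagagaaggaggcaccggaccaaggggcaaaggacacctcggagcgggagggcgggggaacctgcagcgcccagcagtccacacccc

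The search used windows of 250 bases before to 50 bases after the start, which matched 7 of the 8 members with 9 windows. The response element was written as CACGNG, 5 bases of any kind and CNCGTG, where N is any base, and was found in 15 of 32851 windows (0.0457%). These letters were written so as to include the element known from Pklr, so its match there is no test. The E-box was written CACGTG and was found in 2349 windows (7.15%), among them that of Khk and 1 of the windows of Mlxipl. The windows of Slc2a2, Gckr, Pygl and G6pdx held neither pattern, and members with and without a match were among those lower after NMN in the comparison that follows. Both patterns read the same on either strand, and the letters of an E-box can lie within the response element. A match describes the letters only, and no binding was measured.

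The livers of animals given 2680 mg/kg/d had less Pklr, Khk and Pygl transcript than those of their control animals, and no member passed as higher. The mean level with NMN was 0.109 of the control level for Pklr, 0.441 for Khk and 0.568 for Pygl. With p-values from the quasi-likelihood test of edgeR, adjusted by Benjamini-Hochberg over the 12477 genes tested, these 3 of 8 members passed a threshold of 0.05, against 7.08% of all genes tested and 4.03% called lower. The median log2 fold change was -0.62 over the 8 members and 0.00 over all genes tested. The RNA came from liver tissue, in which fewer cells of a type and less RNA per cell cannot be told apart.

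Pklr, the last enzyme of glycolysis, had 246, 306 and 405 CPM in the control livers and 12.2, 46.3 and 46.0 CPM in the NMN-treated livers. Every NMN-treated liver was below every control liver, and NMN mouse 1 was the lowest by a wide margin. The log2 fold change was -3.19 ± 0.53 (SE, 95% interval -4.49 to -1.90, edgeR adjusted p = 0.0251). Hcn3, whose exons overlap the end of Pklr, moved alongside it, with a log2 fold change of -2.91 ± 0.41 (SE, edgeR adjusted p = 0.00536), and its part in the Pklr value was not tested.

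Khk, which commits fructose to metabolism, had 897, 805 and 723 CPM in the control livers and 216, 430 and 423 CPM in the NMN-treated livers. The groups did not overlap, and NMN mouse 1 was again the lowest. The log2 fold change was -1.16 ± 0.22 (SE, 95% interval -1.65 to -0.67, edgeR adjusted p = 0.0152).

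Pygl, which releases glucose units from glycogen, had 820, 808 and 859 CPM in the control livers and 384, 479 and 549 CPM in the NMN-treated livers. The control livers lay close together and all 3 NMN-treated livers were below them. The log2 fold change was -0.79 ± 0.15 (SE, 95% interval -1.11 to -0.47, edgeR adjusted p = 0.0122).

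Gckr, a brake on glucose phosphorylation, had 185, 216 and 178 CPM in the control livers and 163, 116 and 101 CPM in the NMN-treated livers. Here too the groups did not overlap, but NMN mouse 1 was the closest to the control animals. The log2 fold change was -0.57 ± 0.20 (SE, 95% interval -1.0 to -0.14), which did not pass the test (edgeR adjusted p = 0.102). In all, 4 of 8 members had NMN-treated livers entirely below the control livers, compared with 16% of all genes tested. An exact permutation test (two-sided) gave p = 0.1 for each of these 4 members, the smallest p that 3 against 3 animals allow.

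Slc2a2, the GLUT2 transporter, had 347, 524 and 536 CPM in the control livers and 150, 315 and 412 CPM in the NMN-treated livers. The groups overlapped, and the log2 fold change was -0.67 ± 0.34 (SE, 95% interval -1.47 to 0.12, edgeR adjusted p = 0.276). Gys2, which builds glycogen, had 188, 299 and 270 CPM in the control livers and 127, 268 and 254 CPM in the NMN-treated livers. Only NMN mouse 1 was below all control animals, and the log2 fold change was -0.21 (95% interval -0.81 to 0.40, edgeR adjusted p = 0.685).

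Mlxipl, the gene of ChREBP itself, had 293, 282 and 321 CPM in the control livers and 443, 239 and 256 CPM in the NMN-treated livers. NMN mouse 1 was above and the other NMN-treated livers were below all control animals, and the log2 fold change was 0.10 (95% interval -0.43 to 0.63, edgeR adjusted p = 0.837). G6pdx, the gate of the pentose phosphate pathway, stood at 4.82 to 9.78 CPM in the control livers and 5.17 to 9.02 CPM in the NMN-treated livers. These groups covered much the same range, with a log2 fold change of 0.03 (95% interval -0.67 to 0.73, edgeR adjusted p = 0.966), in libraries where Ikbkg, which shares exon bases with G6pdx, was higher with NMN.

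The 3 calls at 2680 mg/kg/d depended on single animals. With each of the 6 libraries left out in turn, between 0 and 4 members passed: 0 without control mouse 2, 1 without control mouse 1, 2 without control mouse 3, NMN mouse 2 or NMN mouse 3, and 4 without NMN mouse 1. Pklr kept its direction each time (log2 fold change -3.45 to -2.80), but its edgeR adjusted p was 0.000163 without NMN mouse 1 and between 0.0523 and 0.0879 without any other animal. Khk lost its call without control mouse 1 (edgeR adjusted p = 0.0530) or control mouse 2 (0.0639), and Pygl without control mouse 2 (0.0540), while Gckr passed without NMN mouse 1 (0.0127). Without a filter on low counts Pklr did not pass (edgeR adjusted p = 0.0799) and Gckr did (-0.58, edgeR adjusted p = 0.0120). No member passed the stricter rule of an adjusted p under 0.01 with a fold under 0.5 or over 2, which 1.08% of genes passed.

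The summed markers of 3 cell types did not overlap between the groups in these livers, and all 3 stood lower with NMN. The summed level of the 6 hepatocyte markers was 233200, 222937 and 205323 CPM in the control livers and 150571, 178146 and 178676 CPM with NMN, led by Alb (133557 CPM with NMN). The 5 red blood cell markers, of interest because Pklr is also expressed in red blood cells, summed to 168, 194 and 161 CPM in the control livers and 58.0, 63.7 and 119 CPM with NMN, and none was at 0. Most of that sum was the heme synthesis gene Alas2 (143 against 42.8 CPM), whereas the globin gene Hbb-bs had 15.04 ± 6.79 CPM (SD, n = 3) in the control livers and 19.6 ± 22.8 CPM (n = 3) with NMN. The 5 lymphocyte markers, led by Ptprc and none at 0, summed to 8.19, 9.73 and 7.89 CPM in the control livers and 7.59, 5.80 and 6.07 CPM with NMN. Mitochondrially encoded genes took between 5.74% and 7.37% of counts in the control livers and between 7.04% and 9.24% with NMN, the highest being NMN mouse 1. Their part in the members' values was not tested either.

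**Figure D1:**
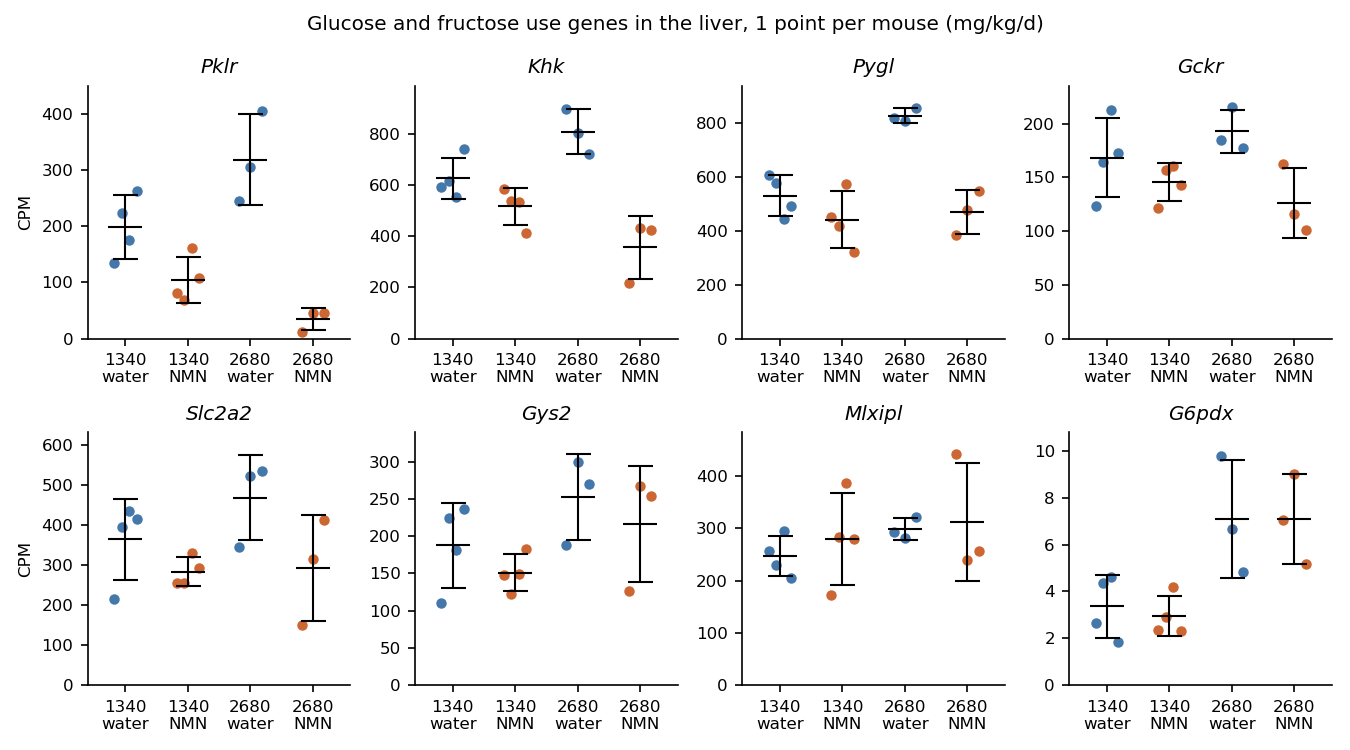
CPM of the 8 members in each liver library (1 point per mouse; the bars are the mean and SD of the group, n = 4 at 1340 mg/kg/d and n = 3 at 2680 mg/kg/d; every axis starts at 0). At 2680 mg/kg/d the NMN points of Pklr, Khk, Pygl and Gckr lie below all control points, and no member is separated at 1340 mg/kg/d.

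At 1340 mg/kg/d no member passed the test in the liver, where the smallest adjusted p among the 8 was 0.509 (edgeR). DESeq2 called 0 members there as well. Here 0.0161% of the 12449 genes tested were called, 2 genes in all. Of the members, 7 had a negative and 1 a positive log2 fold change, with a median of -0.26 against 0.00 over all genes tested, and 1 had an unadjusted p under 0.05, compared with 6.86% of genes. The 8 members overlapped between the groups in every case, compared with 3.54% of genes whose groups did not.

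The member with the unadjusted p under 0.05 was Pklr. It had 134, 223, 175 and 264 CPM in the control livers and 81.1, 69.4, 161 and 108 CPM in the NMN-treated livers. Only NMN mouse 3 reached into the range of the control animals, above control mouse 1. The mean with NMN was 0.527 of the control mean and the log2 fold change was -0.90 ± 0.28 (SE, 95% interval -1.53 to -0.27, edgeR unadjusted p = 0.00937), and an exact permutation test (two-sided) gave p = 0.0571, where 0.0286 is the smallest possible.

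Khk at this dose had 591, 614, 555 and 742 CPM in the control livers and 584, 536, 533 and 412 CPM in the NMN-treated livers. NMN mouse 1 lay within the control range and the other NMN-treated livers below it, with a log2 fold change of -0.26 (95% interval -0.56 to 0.03). Pygl ranged from 444 to 608 CPM in the control livers and from 320 to 575 CPM with NMN, with a log2 fold change of -0.25 (95% interval -0.61 to 0.11). The lowest Khk and Pygl values were both those of NMN mouse 4, the liver library with the highest share of entries that named no gene, and without it the log2 fold changes were -0.18 and -0.14 and still no member passed. The remaining members had log2 fold changes between -0.35 (Slc2a2) and 0.20 (Mlxipl), and in control mouse 1 both Slc2a2 (215 CPM) and Gys2 (110 CPM) were the lowest of all 8 livers.

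When the NMN effect was averaged over both schedules in a fit of all 14 liver libraries, the same 3 members passed, among 8.53% of 13412 genes tested that passed and 4.47% called lower. Pklr had an average log2 fold change of -2.04 ± 0.31 (SE, edgeR adjusted p = 0.00348). For Khk it was -0.71 ± 0.13 (SE, edgeR adjusted p = 0.00354) and for Pygl -0.52 ± 0.12 (SE, edgeR adjusted p = 0.0135). These 3 calls held with each of the 14 libraries left out in turn. Exact permutation within schedules (two-sided; smallest possible p = 0.00143) gave p = 0.00286 for Pklr and for Khk, and p = 0.01 for Pygl.

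Gckr reached -0.38 ± 0.13 (SE) on average and did not pass (edgeR adjusted p = 0.0843). It passed without control mouse 1 of the 1340 mg/kg/d schedule (0.0403), without NMN mouse 1 of the 2680 mg/kg/d schedule (0.0243) and without a filter on low counts (edgeR adjusted p = 0.0375). Slc2a2 averaged -0.50 ± 0.21 (SE, edgeR adjusted p = 0.153). The exact permutation p was 0.0286 for Gckr and 0.0529 for Slc2a2. Gys2, Mlxipl and G6pdx averaged -0.25, 0.16 and -0.07.

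Whether the NMN effect differed between the schedules was tested as an interaction. No member passed, and 0.0746% of genes did. Pklr differed most, with a log2 fold change lower by 2.28 ± 0.61 (SE) at 2680 than at 1340 mg/kg/d (95% interval of the difference -3.61 to -0.94, edgeR unadjusted p = 0.00305, adjusted p = 0.287), and DESeq2's test gave an adjusted p of 0.0407. The differences for Khk, -0.89 ± 0.26 (SE, edgeR unadjusted p = 0.00315, adjusted p = 0.287), and for Pygl, -0.53 ± 0.24 (SE, edgeR unadjusted p = 0.0396, adjusted p = 0.543), were in the same direction. These were the 3 members with an unadjusted p under 0.05, compared with 8.6% of genes.

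**Figure D2:**
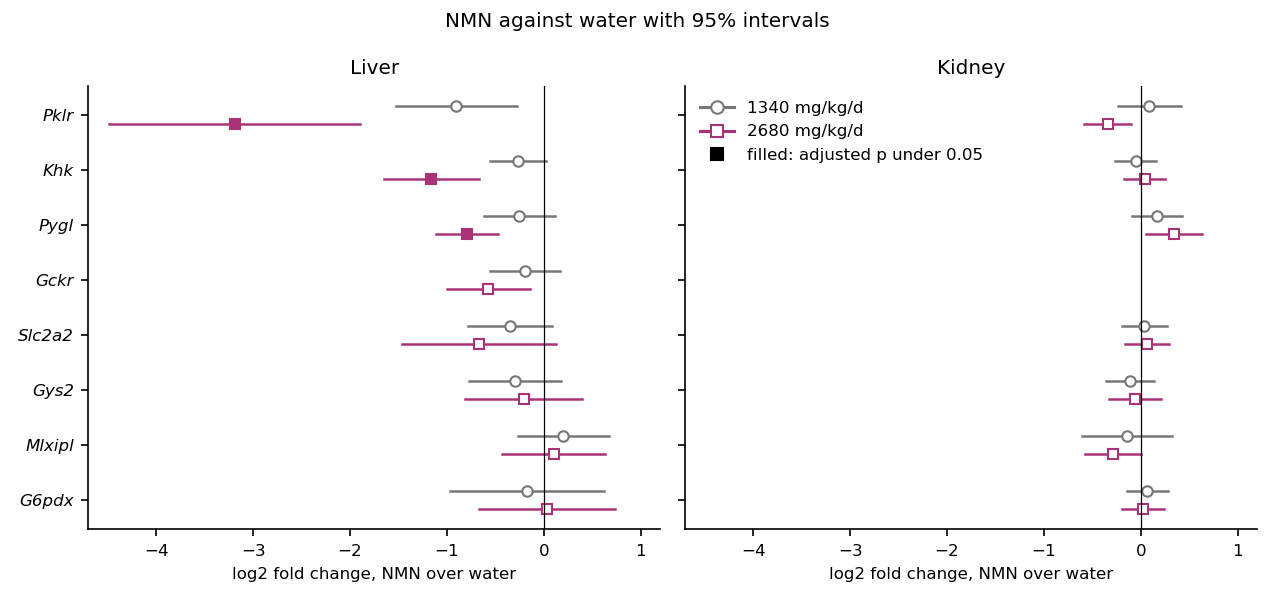
Log2 fold change of NMN-treated against control animals (horizontal axis) with its 95% interval for each member and schedule, liver on the left and kidney on the right; filled points have an edgeR adjusted p under 0.05. The 3 filled points are Pklr (-3.19), Khk (-1.16) and Pygl (-0.79) in the liver at 2680 mg/kg/d, and Gckr is not drawn in the kidney because it did not pass the filter on low counts.

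The other genes of these pathways were followed as 8 lists. In the liver at 2680 mg/kg/d, 6 of the 73 list genes tested fell (8.22%, against 4.03% of all genes called lower) and none rose, where 7.08% of all genes were called in either direction. Of 7 fructose and polyol genes tested, 1 fell. It was Tkfc, the triokinase of fructose use, which went from 600 ± 38.8 CPM (SD, n = 3) to 275 ± 114 CPM (n = 3), a log2 fold change of -1.11 (edgeR adjusted p = 0.0406). Next in order of p was Akr1b3, an aldose reductase of the polyol pathway, at -0.83 (edgeR adjusted p = 0.114), and the median log2 fold change of this list was -0.38.

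Among 14 glycogen synthesis genes tested, 2 fell and the median was -0.28. Ppp1r3c, a subunit that brings a phosphatase to glycogen, went from 241 ± 85.8 CPM (SD, n = 3) to 66.8 ± 23.8 CPM (n = 3), a log2 fold change of -1.81 (edgeR adjusted p = 0.0176). Gyg, glycogenin, the primer of new glycogen, went from 9.42 to 4.14 CPM (log2 fold change -1.17, edgeR adjusted p = 0.0325). Among 7 glycogen breakdown genes besides Pygl, 1 fell and the median was -0.02. It was Phkb, a subunit of the kinase that activates glycogen phosphorylase, which went from 24.4 to 12.1 CPM (log2 fold change -0.98, edgeR adjusted p = 0.0204), and next in order of p was Gaa, the lysosomal glucosidase, at 0.24 (edgeR adjusted p = 0.319).

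Of 6 genes of glucose release and gluconeogenesis tested, 1 fell and the median was -0.68. Fbp1, fructose-1,6-bisphosphatase, the enzyme that runs opposite to the main control step of glycolysis, went from 1371 ± 57.1 CPM (SD, n = 3) to 789 ± 53.8 CPM (n = 3), a log2 fold change of -0.77 (edgeR adjusted p = 0.00618). Pcx, pyruvate carboxylase, was next, at -0.52 (edgeR adjusted p = 0.0692). Of 22 hexokinase and glycolysis genes tested, 1 fell and the median was -0.26. This was Gapdh, which went from 1195 ± 125 CPM (SD, n = 3) to 780 ± 172 CPM (n = 3), a log2 fold change of -0.59 (edgeR adjusted p = 0.0463), followed by the enolase gene Eno1 at -0.54 (edgeR adjusted p = 0.139).

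None of the 7 pentose phosphate genes tested passed, although 5 had an unadjusted p under 0.05 with a negative fold change (12.3% of all genes tested did) and the median was -0.57. The nearest were Pgd, 6-phosphogluconate dehydrogenase, at -0.77 (edgeR adjusted p = 0.0518), and Pgls, 6-phosphogluconolactonase, at -0.59 (edgeR adjusted p = 0.0521). No gene among 8 ChREBP partners and carbohydrate-responsive targets passed, with a median of 0.06. Mlx, the partner of ChREBP, stood at -0.42 (edgeR adjusted p = 0.178) and Mlxip, its paralog MondoA, at 0.66 (edgeR adjusted p = 0.198). Neither of the 2 other glucose transporters tested, Slc5a1 (0.75, edgeR adjusted p = 0.453) and Slc2a1 (0.12, edgeR adjusted p = 0.853), passed.

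With each of the 6 libraries left out in turn, between 2 and 9 genes of these lists fell and between 0 and 2 rose. Fbp1 passed all 6 times and Ppp1r3c 5 times, failing without NMN mouse 2 (edgeR adjusted p = 0.0629). Phkb passed 3 times, Tkfc 2 times, and Gapdh and Gyg 1 time each, without NMN mouse 2. Without NMN mouse 1, the library that stood apart, 5 list genes fell and 2 rose. Fbp1, Ppp1r3c, Phkb (edgeR adjusted p = 0.0277) and Tkfc (0.00733) then passed, and Gapdh (log2 fold change -0.46, edgeR adjusted p = 0.0795) and Gyg (-0.99, 0.0573) did not. With all 6 libraries Gapdh stood at -0.59 and Gyg at -1.17. Over the left-out libraries Gapdh ranged from -0.72 to -0.46 and Gyg from -1.34 to -0.99. In the liver at 1340 mg/kg/d no gene of the 8 lists passed, and list medians lay between -0.28 (fructose and polyol use) and 0.35 (ChREBP partners and targets). The smallest p there belonged to Mlxip (0.82, edgeR adjusted p = 0.390) and Txnip, a thioredoxin-binding protein induced by glucose (0.84, edgeR adjusted p = 0.511).

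**Figure D3:**
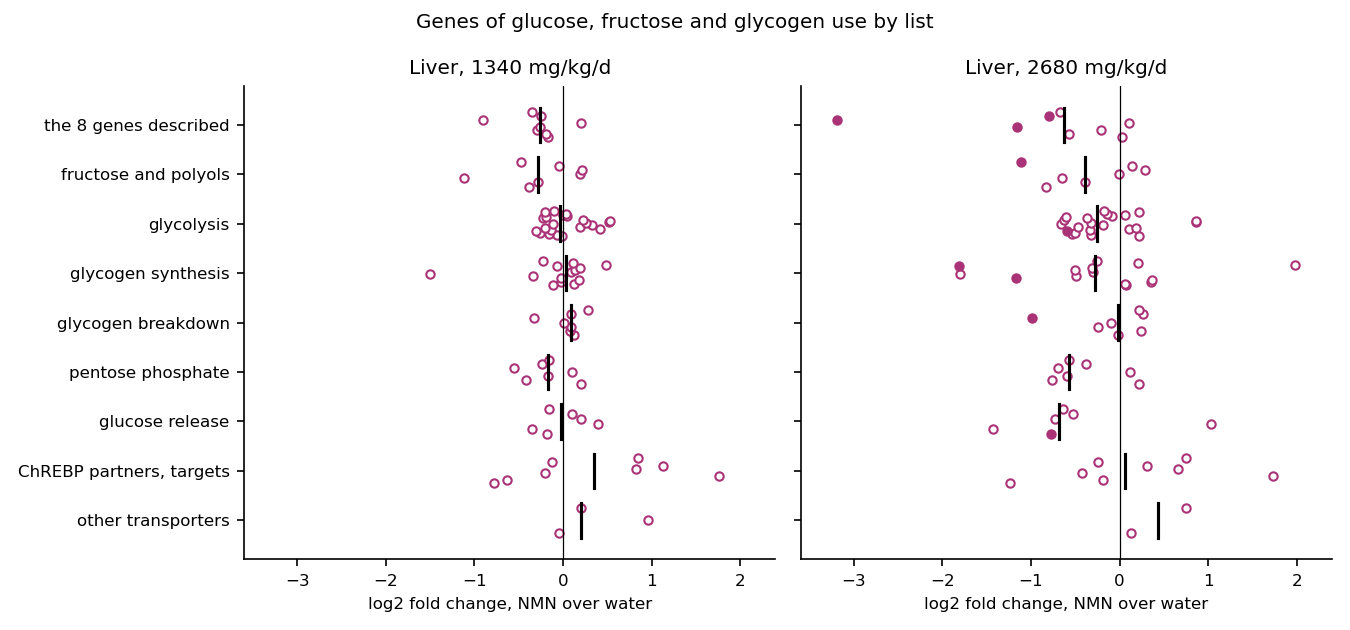
Log2 fold change of NMN-treated against control livers (1 point per gene) for the members and the 8 pathway lists at 1340 and 2680 mg/kg/d; black bars are list medians and filled points have an edgeR adjusted p under 0.05. At 2680 mg/kg/d the filled points are 3 members and 6 genes of the lists, all below 0, and there are none at 1340 mg/kg/d.

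Averaged over both schedules, 9 of 76 list genes tested fell in the liver (11.8%, against 4.47% of all genes) and 1 rose, so that 13.2% were called, against 8.53% of all genes. The pentose phosphate list had 4 of 7 genes that fell. They were Pgd at -0.59 (edgeR adjusted p = 0.0164), the isomerase Rpia at -0.62 (0.0460), Pgls at -0.38 (0.0486) and the transketolase Tkt at -0.36 (0.0490). Fbp1 fell by 0.47, Gapdh by 0.45, Phkb by 0.65, Tkfc by 0.79 and Gyg by 0.59 on the log2 scale, and Mlxip was higher by 0.74 (edgeR adjusted p = 0.0145). With each of the 14 libraries left out in turn, between 4 and 12 list genes fell and between 0 and 3 rose. Fbp1, Gapdh and Phkb passed all 14 times and Pgd and Mlxip 13 times. The other 5 passed 3 or 4 times, so that those calls were lost when most single libraries were left out.

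In the kidney no member passed the test at either dose. At 1340 mg/kg/d, 7 members were tested, with log2 fold changes between -0.14 and 0.17 and a smallest adjusted p of 0.724 (edgeR), where 0.12% of 14972 genes were called. None had an unadjusted p under 0.05, compared with 8.94% of genes. Gckr did not pass the filter on low counts, with 0 to 13 reads per kidney library over both schedules. DESeq2's test called none of the members either, in the kidney at 1340 or at 2680 mg/kg/d.

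With 2680 mg/kg/d in the kidney, 0.4% of 15245 genes were called and 2 of the 7 members tested had an unadjusted p under 0.05, compared with 11.1% of genes. Pklr had 18.3, 16.8 and 16.8 CPM in the control kidneys and 11.7, 14.3 and 14.8 CPM with NMN. The groups did not overlap, the NMN-treated kidneys being lower, and the log2 fold change was -0.34 ± 0.11 (SE, 95% interval -0.59 to -0.10, edgeR unadjusted p = 0.0104, adjusted p = 0.270).

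Pygl went the other way in the kidney, with 21.8, 28.9 and 28.5 CPM in the control kidneys and 29.9, 30.8 and 39.0 CPM with NMN. All NMN-treated kidneys were above the control kidneys, and the log2 fold change was 0.34 ± 0.13 (SE, 95% interval 0.05 to 0.63, edgeR unadjusted p = 0.0255, adjusted p = 0.364). Without a filter on low counts it passed (edgeR adjusted p = 0.0192). Groups that did not overlap were found for Gckr and Pygl (NMN higher, as in 8.11% of genes) and for Pklr (NMN lower, as in 9.01%), and Gckr had at most 13 reads per library. Its reads were 5, 0 and 3 in the control kidneys and 8, 13 and 13 with NMN. All NMN-treated kidneys of this schedule were sequenced deeper than its control kidneys, and the part of depth in these values was not tested. Mlxipl had a log2 fold change of -0.28 (95% interval -0.57 to 0.00), and Khk, Slc2a2, G6pdx and Gys2 lay between -0.06 and 0.07.

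**Figure D4:**
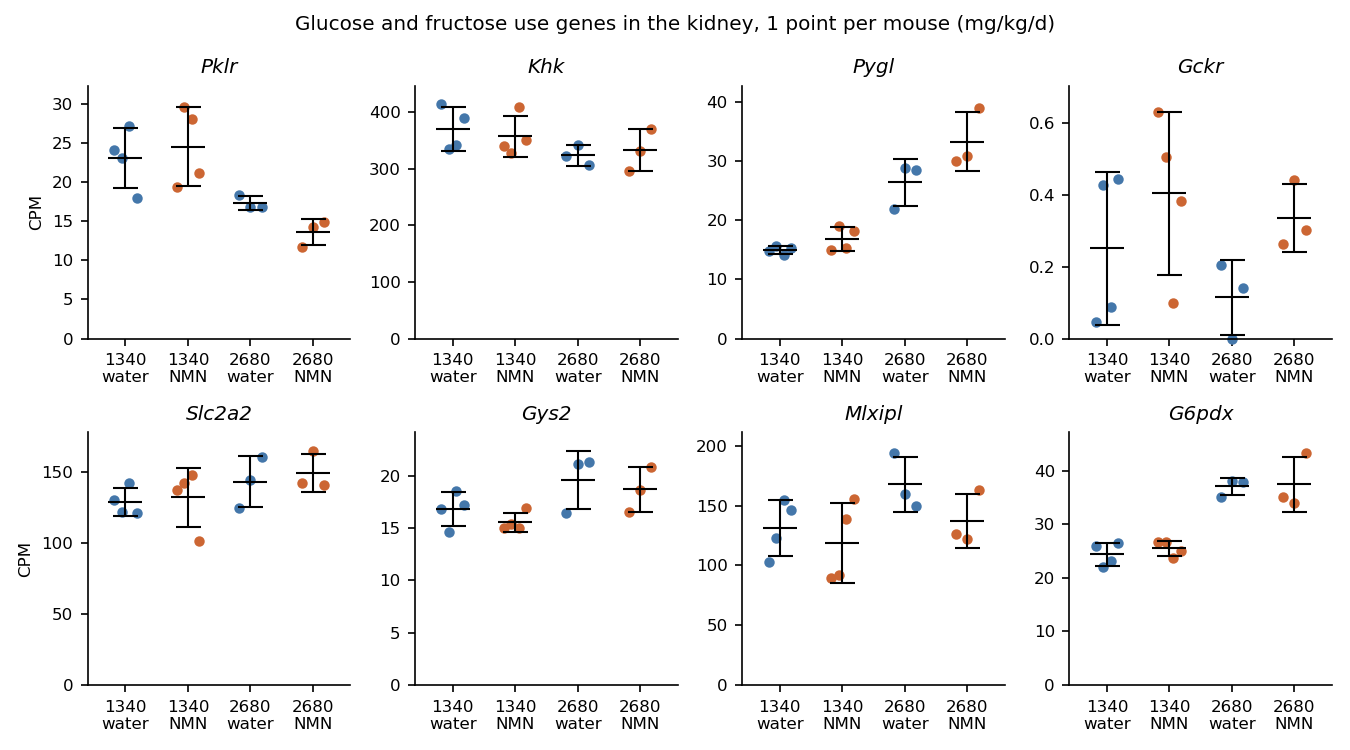
CPM of the 8 members in each kidney library (1 point per mouse; the bars are the mean and SD of the group, n = 4 at 1340 mg/kg/d and n = 3 at 2680 mg/kg/d; every axis starts at 0). Groups overlap for every member at 1340 mg/kg/d, and at 2680 mg/kg/d for all but Pklr (NMN lower), Pygl and Gckr (NMN higher), of which Gckr stays under 1 CPM.

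Averaged over both schedules in the kidney, 0 of 8 members passed and 1.39% of 15989 genes did. By DESeq2's test the count was also 0. Only Pygl had an unadjusted p under 0.05, at 0.25 ± 0.09 (SE, edgeR unadjusted p = 0.0092, adjusted p = 0.194), with an exact permutation p of 0.0114 (two-sided), compared with 12.4% of genes at that unadjusted threshold. The interaction with schedule passed for no member by edgeR or by DESeq2, with 0.00625% of genes called and no member under an unadjusted p of 0.05 (4.62% of genes). Of 79 list genes tested in the kidney, none passed at either single schedule. On average 3 of 80 did (3.75%, against the 1.39% of all genes). Slc5a2, the SGLT2 glucose transporter of the proximal tubule, fell by 0.59 on the log2 scale (edgeR adjusted p = 0.0220), while the hexokinase gene Hk1 rose by 0.31 (0.0234) and the pyruvate kinase gene Pkm by 0.29 (0.0317). With each of the 14 libraries left out, Slc5a2 and Hk1 passed 9 times and Pkm 5 times. The 6 proximal tubule markers also stood lower with NMN in the kidney, with summed means of 22679 and 17572 CPM at 1340 mg/kg/d and of 23039 and 17674 CPM at 2680 mg/kg/d, led by Kap and none at 0. They overlapped between the groups at 1340 mg/kg/d and not at 2680 mg/kg/d. The 6 markers of the loop of Henle, distal tubule and collecting duct, led by Umod and none at 0, stood higher, at 2940 to 3396 CPM in control kidneys and 3696 to 3946 CPM with NMN at 1340 mg/kg/d, without overlap, and at 2631 to 3085 and 2864 to 3254 CPM at 2680 mg/kg/d, with overlap. The 4 bile duct markers, led in the kidney by the keratin gene Krt7, were also higher at 2680 mg/kg/d, at 135 to 146 CPM in control kidneys and 148 to 177 CPM with NMN. The part of these markers in the kidney values was not tested.

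The difference between the organs was tested directly, as the NMN effect in liver minus that in kidney. For the 2680 mg/kg/d schedule 3 of 8 members passed, among 2.65% of 15811 genes, 1.6% lower in liver. The difference in log2 fold change was -2.87 ± 0.53 (SE, edgeR adjusted p = 0.0217) for Pklr, -1.22 ± 0.27 (SE, 0.0333) for Khk and -1.15 ± 0.21 (SE, 0.0144) for Pygl. Gckr, at -2.02 ± 0.64 (SE, 0.102), did not pass, and its kidney values rested on a few reads. It passed by DESeq2 (adjusted p = 0.0226) and without a filter on low counts (edgeR adjusted p = 0.00221). With each of the 12 libraries left out in turn between 1 and 4 members passed. Pygl passed every time. Pklr failed 5 times, without kidney NMN mice 2 or 3 or kidney control mice 1, 2 or 3, and Khk failed without these and without liver control mice 1 or 2. At 1340 mg/kg/d no member and 0% of genes passed, DESeq2 called 0 members, and Pklr alone had an unadjusted p under 0.05 (difference -1.01, edgeR unadjusted p = 0.00906, adjusted p = 0.690), compared with 5.79% of genes.

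The 8 members are set at different levels in the 2 organs of control animals. In the fit of liver against kidney all 8 passed at both schedules, where 66.9% of genes passed at 1340 mg/kg/d and 70.5% at 2680 mg/kg/d, so that being called is common here. On the per-length scale, Khk was the highest member in both organs. Its level in control livers at 1340 mg/kg/d was 348 ± 45.3 CPM per kilobase (SD, n = 4), and in kidneys 206 ± 21.6 (n = 4). The mean ratio of liver to kidney was 1.69 at 1340 mg/kg/d and 2.49 at 2680 mg/kg/d, but with libraries scaled by size alone the log2 difference of Khk was -0.22 at 1340 mg/kg/d, against 0.73 with the scaling used here.

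Behind Khk in control livers at 1340 mg/kg/d came Pygl (76.9 ± 11.0 CPM per kilobase, SD, n = 4), Gys2 (70.7 ± 21.5), Slc2a2 (63.5 ± 17.6) and Pklr (61.5 ± 17.4), whose ranges overlapped, then Mlxipl (44.5 ± 6.87) and Gckr (38.8 ± 8.46). G6pdx was the lowest, at 1.09 ± 0.434. In the kidney Mlxipl (23.8 ± 4.23) and Slc2a2 (22.4 ± 1.71) followed Khk and did not differ beyond their spread. G6pdx (7.91 ± 0.691), Pklr (7.13 ± 1.18) and Gys2 (6.33 ± 0.618) came next, then Pygl (2.17 ± 0.0992) and Gckr (0.0580 ± 0.0491).

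The organ contrast was widest for Gckr, with 1162 to 2269 reads per control liver and 1 to 10 per control kidney at 1340 mg/kg/d. Pygl stood 35.4-fold higher in liver at 1340 mg/kg/d and 31.4-fold higher at 2680 mg/kg/d, Gys2 11.2-fold and 12.9-fold, Pklr 8.63-fold and 18.4-fold, and Slc2a2 2.83-fold and 3.28-fold. Mlxipl stood 1.87-fold and 1.78-fold higher in liver, a direction that turned when libraries were scaled by size alone (log2 difference -0.07 and -0.13). G6pdx ran opposite, its liver level being 0.138 of the kidney level at 1340 mg/kg/d and 0.191 at 2680 mg/kg/d. G6pd2, a near copy of G6pdx that could take some of its reads, had no count in the liver.

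**Figure D5:**
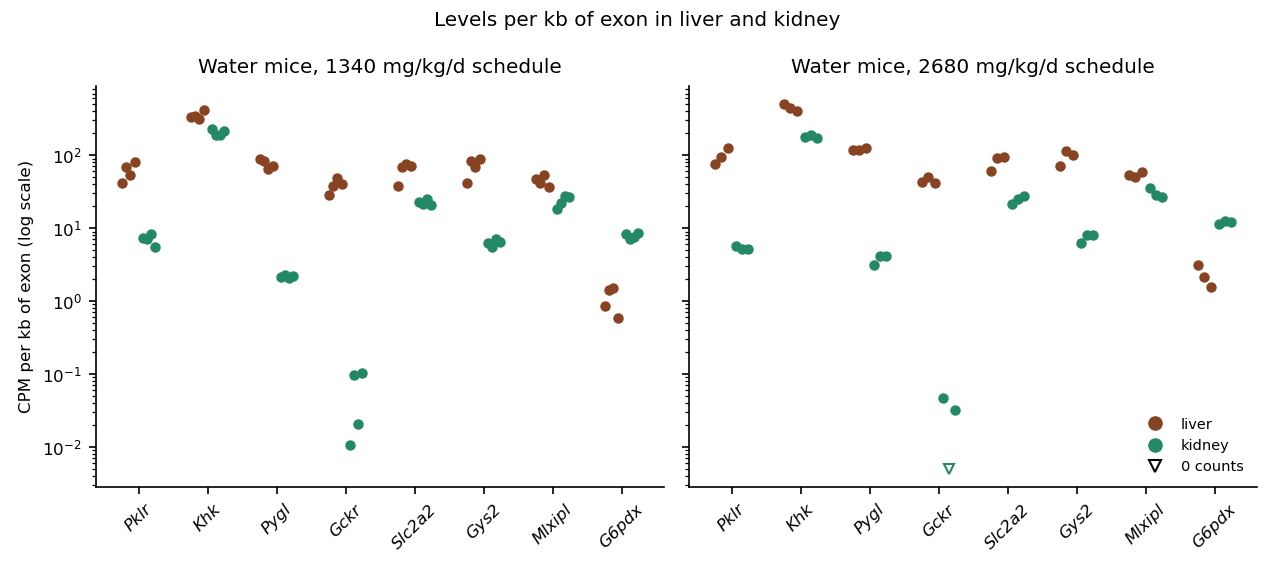
CPM per kilobase of exon (log axis) of each member in control livers and kidneys, 1 point per mouse, for both schedules; an open triangle marks a library with 0 counts. Khk is the highest member in both organs, Gckr is nearly restricted to the liver and G6pdx is the member that is higher in the kidney; with libraries scaled by size alone Mlxipl (both schedules) and Khk (1340 mg/kg/d) would be slightly lower in liver than in kidney.

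From the pathway lists, the genes that took the most reads of their list were compared between the organs, each only with itself, since read numbers of different genes also depend on length. In control animals at 1340 mg/kg/d Sord, sorbitol dehydrogenase, had 1840 ± 89.6 CPM (SD, n = 4) in liver and 1180 ± 54.1 CPM (n = 4) in kidney, a difference that passed (edgeR adjusted p = 0.000224). Gapdh did not pass at 1340 mg/kg/d, with 1087 ± 112 and 989 ± 122 CPM (edgeR adjusted p = 0.448), and did at 2680 mg/kg/d, with 1195 ± 125 and 780 ± 41.6 CPM (edgeR adjusted p = 0.000753). Pck1, the gluconeogenic enzyme of both organs, had 2835 ± 365 CPM in liver and 2806 ± 620 CPM in kidney at 1340 mg/kg/d (edgeR adjusted p = 0.966), but 730 ± 401 and 1413 ± 228 CPM at 2680 mg/kg/d (edgeR adjusted p = 0.0835). Fbp1 stood at 1371 ± 57.1 CPM in liver and 563 ± 44.1 CPM in kidney at 2680 mg/kg/d (edgeR adjusted p = 2.07e-06).

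The remaining lists were compared in the same way. Ugp2, which makes UDP-glucose for glycogen, had 471 ± 97.3 CPM (SD, n = 4) in liver and 109 ± 7.09 CPM (n = 4) in kidney at 1340 mg/kg/d (log2 difference 2.08, edgeR adjusted p = 4.46e-08). H6pd, the hexose-6-phosphate dehydrogenase of the endoplasmic reticulum, had 528 ± 98.7 and 171 ± 8.12 CPM (1.60, edgeR adjusted p = 2.71e-07), and Gaa 122 ± 12.3 and 83.3 ± 2.89 CPM (0.53, edgeR adjusted p = 0.000809). Higher in the kidney were Txnip, with 50.04 ± 9.48 CPM in liver and 160 ± 37.0 CPM in kidney (-1.70, edgeR adjusted p = 2.21e-06), and Slc2a1, with 19.0 ± 3.06 and 42.1 ± 2.29 CPM (-1.17, edgeR adjusted p = 5.93e-06), while Tkt, with 172 ± 25.7 and 194 ± 14.6 CPM, did not pass (-0.20, edgeR adjusted p = 0.171). At 2680 mg/kg/d Txnip did not pass either (-0.77, edgeR adjusted p = 0.101). Scaling by library size alone moved the median of all genes in this comparison to -1.05 and -1.10, so that the direction of the smaller differences depends on the scaling. Others were close to 0 in 1 organ. At 1340 mg/kg/d Angptl8, an insulin- and feeding-responsive secreted protein, had 171 ± 139 CPM in liver and 1.05 ± 0.503 CPM in kidney, whereas Slc5a2 had 285 ± 30.5 CPM in kidney and 0.700 ± 0.411 CPM in liver.

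Likeness of pattern was described over the 14 liver libraries by Pearson's r of log2 CPM, centred on each schedule, with no test, since the libraries share the treatment contrast. Among the 7 members with a mean of at least 10 CPM, Pklr and Khk were the most alike pair (r = 0.91), followed by Slc2a2 and Gys2 (r = 0.87), Khk and Pygl (r = 0.86) and Pklr and Pygl (r = 0.84), while Mlxipl and Gys2 were the most opposed (r = -0.48). With the treatment groups centred as well, over all 8 members, Slc2a2 and Gys2 were the most alike pair (r = 0.89) and Pklr and Khk had an r of 0.63, and the most opposed pairs were Mlxipl and Khk (r = -0.70) and Gckr and Khk (r = -0.51). Over 7943 genes with a mean of at least 10 CPM, the genes most like Pklr were Pdzk1 (r = 0.97), Hcn3 (0.96), which shares exon bases with it, and Capn1 (0.95). Glrx, Alad and Dera were the most like Khk (0.97 each), and Glo1 (0.95), Car3 (0.94) and Ttc39c (0.93) the most like Pygl. Hlf (0.92), Ank and Tbc1d16 (0.87 each) were the most like Slc2a2, and 2310022B05Rik (0.93) and again Hlf (0.90) were among the 3 most like Gys2. Wdr13, Clk3 (0.87 each) and Ddx46 (0.83) were the most like Mlxipl, and Uroc1, Apoa4 (0.84 each) and Mindy3 (0.83) the most like Gckr. G6pdx was under the minimum of 10 CPM and was compared only with the other members, with the treatment groups centred.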

How the data were processed

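PolyA RNA was sequenced from liver and kidney of 28 libraries. Alignment by the authors used STAR, on a mouse genome whose name could not be matched to a build. They assigned reads to genes by HTSeq-count (intersection-strict, without strand) and the authors deposited these raw counts with no normalization. Between 18.6% and 29.3% of each library's entries were on lines that name no gene and were left out. Of 54446 gene identifiers, 53229 matched GENCODE M21 with the same version, 1180 with another version and 37 not at all.

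Counts were tested with edgeR 4.0.16 in R 4.3.3 (filterByExpr, trimmed mean of M-values, robust quasi-likelihood fit), with Benjamini-Hochberg adjustment over all genes tested and a threshold of 0.05. The 4 NMN comparisons used the libraries of 1 organ and schedule, and the averages, interactions and organ contrasts used all libraries they concern. CPM values divide counts by library sizes scaled over all 28 libraries; they need not sum to 1000000. Exact permutation tests used log2(CPM + 0.1). The scripts were tested on simulated data with known changes. Alternatives were DESeq2 1.42.0, other scalings and filters, a replicate block, and each library left out. Scaling by library size alone, and leaving libraries out for the pathway lists, were chosen after seeing the data. Named genes were all 8 members, every pathway gene that passed, the 2 of each list with the smallest p, the gene of each list with the highest CPM in each organ, and the 3 genes most like each member. A pair of genes of the lists, which enters no count of them, and 1 gene alike in pattern are not reported here. The members, lists and tests were chosen with earlier results of these data known, so that they are no independent support. The methods describe the replicates as separate mice; the labels do not say which liver and kidney came from 1 mouse, and organs were compared as unpaired. Intervals cover the spread between libraries; reads carry no molecular identifiers, so read numbers are not independent molecules.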

Additional observations from a re-analysis of the deposited data

Results flagged for a closer look

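At 2680 mg/kg/d the NMN effect differed between liver and kidney for 3 members, by a test of the difference itself. The log2 fold change in liver minus that in kidney was -2.87 for Pklr (edgeR adjusted p = 0.0217), -1.22 for Khk (0.0333) and -1.15 for Pygl (0.0144). With single libraries left out, only Pygl passed every time, while Pklr and Khk lost their calls without some of them. In the liver all 3 NMN-treated animals were below all 3 control animals for each of these genes. No single library stood apart from its group by Dixon's test in the 32 groups of 4 values looked at, all from the animals given 1 gavage per day. Groups of 3 at 2680 mg/kg/d were not tested, and there the liver library of NMN mouse 1 had a chi-square per gene of 60.6 and 59.4 against NMN mice 2 and 3, which differed from each other by 31.0. By the same measure the liver of NMN mouse 4 at 1340 mg/kg/d differed from the others of its group by 64.1 to 67.9, and control livers 1 and 3 there differed by 96.2.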

How the results depend on the processing

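Of 776 member values under settings other than left-out libraries, 755 kept their direction and their side of the threshold, 10 turned direction, 1 lost and 10 gained a call without turning. Of 4 calls lost in all, 3 were among the turned values: by library size alone, Mlxipl at both schedules and Khk at 1340 mg/kg/d in liver against kidney, called at 0.88, 0.80 and 0.73 with the scaling used here. The turned values were G6pdx in the liver at 2680 mg/kg/d (-0.020, upper quartile scaling) and averaged over schedules (0.0097, library size alone), the Mlxipl interaction in the liver (0.034, library size alone), Khk averaged in the kidney (0.0044 without a filter, 0.0074 by library size alone), Mlxipl (-0.067 and -0.13) and Khk (-0.22 at 1340 mg/kg/d) in liver against kidney by library size alone, and the G6pdx organ difference at 2680 mg/kg/d (0.0098 with at least 10 reads in every library, 0.16 by library size alone). Scaling by library size alone moved the median log2 value of all genes to 0.15 in the liver at 2680 mg/kg/d and to -1.05 and -1.10 in liver against kidney.

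The number of genes called moved with the method. In the liver at 1340 mg/kg/d it was 2, and 74 by DESeq2, 44 without a filter, 16 with the replicate block and 6 with all 14 libraries of the organ. In the liver at 2680 mg/kg/d it was 883, and 1448 by DESeq2 and 1785 without a filter. In the kidney at 1340 mg/kg/d it was 18, and 159, 269, 75 with the block and 5 without the robust option. In the kidney at 2680 mg/kg/d it was 61, and 236, 514, 92 with the block and 35 with all 14 libraries. Members called changed from 3 to 0 under the stricter rule in the liver at 2680 mg/kg/d, from 0 to 1 without a filter in the kidney at 2680 mg/kg/d (Pygl), from 3 to 5 with the block in the liver average (adding Slc2a2, -0.52, edgeR adjusted p = 0.0156, and Gckr, -0.39, 0.0421), from 0 to 1 by DESeq2 in the liver interaction (Pklr) and from 3 to 5 without a filter in the organ difference at 2680 mg/kg/d (adding Gckr and Slc2a2). The cause of these changes was not tested.

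With single libraries left out, genes called ranged over 0 to 18 (liver, 1340 mg/kg/d), 211 to 1308 (liver, 2680), 5 to 67 (kidney, 1340) and 3 to 191 (kidney, 2680). Members called ranged over 0 to 4 in the liver at 2680 mg/kg/d, 3 to 4 in the liver average and 1 to 4 in the organ difference. Members near 0 changed sign. At 2680 mg/kg/d in the liver these were G6pdx (-0.17 to 0.32), Gys2 (-0.39 to 0.041) and Mlxipl (-0.28 to 0.28), at 1340 mg/kg/d G6pdx (-0.39 to 0.023), and on average G6pdx (-0.18 to 0.069) and Mlxipl (-0.029 to 0.25). The liver interaction did so for Gys2 (-0.086 to 0.36) and Mlxipl (-0.46 to 0.10), and the organ difference for G6pdx (-0.23 to 0.28) and Gys2 (-0.34 to 0.11). In the kidney at 1340 mg/kg/d they were Khk (-0.13 to 0.016), Pklr (-0.016 to 0.19) and Slc2a2 (-0.024 to 0.14), at 2680 mg/kg/d G6pdx (-0.10 to 0.087), Gys2 (-0.18 to 0.017), Khk (-0.040 to 0.12) and Slc2a2 (-0.030 to 0.16), on average G6pdx (-0.020 to 0.072) and Khk (-0.050 to 0.032), and in the interaction G6pdx (-0.16 to 0.020), Gys2 (-0.065 to 0.13), Mlxipl (-0.29 to 0.017) and Slc2a2 (-0.078 to 0.12).

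Control and NMN-treated animals share replicate numbers, but these did not pair the libraries: deviations from group means correlated between same-numbered animals with a mean r of 0.035 (liver, 1340 mg/kg/d), 0.099 (liver, 2680), 0.047 (kidney, 1340) and 0.0098 (kidney, 2680). In the liver at 2680 mg/kg/d every animal correlated best with its own number, which is a hint from the data and not the design. There the block gave Slc2a2 an edgeR adjusted p of 0.0257. Between organs, same-numbered livers and kidneys of control animals had a mean r of 0.15 (0.076 to 0.24) at 1340 and 0.12 (0.079 to 0.18) at 2680 mg/kg/d, all of them best with their own number, and those of NMN-treated animals 0.085 and 0.014. The block on that number changed no call of a member in liver against kidney or in the organ difference.

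Depth limits Gckr in the kidney (0 to 13 reads) and G6pdx in the liver (20 to 129 reads per library). With 3 or 4 animals per group, a member that did not pass is not shown to be unchanged. Dose and gavage schedule cannot be told apart, nor can they from any other difference between the libraries of the schedules.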
